A study of Mus musculus with 6 samples.

Results

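Of the 13 proteins encoded by the mouse mitochondrial genome, 6 serve outside complex I, and their mRNAs are described here: Mtco1, Mtco2 and mt-Co3, Mtatp6 and Mtatp8, and Mt-Cyb. They were found by gene symbol, ignoring case, and each stood on a single row among 21049 named rows. The libraries come from mouse embryonic fibroblasts (MEFs), which are connective tissue cells grown in culture: 3 are labelled as Ufl1 knockout (Ufl1-KO), and 3 are controls that the labels call NC without spelling it out. Ufl1 encodes the ligase that joins the small protein UFM1 to its targets. Knockdown and hypoxia appear in the title of the series, but the labels of the single libraries name neither an oxygen condition nor a treatment besides the genotype, and no clone, line, age or promoter is given. Whatever else differs between the cultures of each genotype cannot be told apart from it.

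Mitochondrial DNA is transcribed from both strands into long precursors. The tRNAs that lie between most genes are cut out, which frees the mRNAs. Mtco1, Mtco2 and mt-Co3 encode the catalytic core of cytochrome c oxidase (COX, complex IV), which passes electrons to oxygen. Mt-Cyb encodes cytochrome b, the only mitochondrially encoded subunit of complex III, and Mtatp6 and Mtatp8 encode membrane subunits of ATP synthase. All these complexes also contain subunits made from nuclear genes, so their assembly draws on both genomes.

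All 6 genes lie on the plus strand of chrM (mm10, GENCODE M21), are annotated as protein coding and have no introns. Mtco1 lies at chrM:5328-6872, Mtco2 at chrM:7013-7696, Mtatp8 at chrM:7766-7969, Mtatp6 at chrM:7927-8607, mt-Co3 at chrM:8607-9390 and Mt-Cyb at chrM:14145-15288. Mtco1 and Mtco2 have tRNA genes on both sides, as has Mt-Cyb. Mtatp8, Mtatp6 and mt-Co3 have no tRNA gene between them. Mtatp8 and Mtatp6 are read in different frames from 1 shared mRNA and overlap by 43 bases, and Mtatp6 and mt-Co3 share 1 base. Each of the 6 gene rows is called an mRNA here, although Mtatp8 and Mtatp6 are parts of the same one. The overlap is shown because a read lying across it belongs to both genes, and the sources used here do not give how such reads were counted. Capitals mark the 43 shared bases in the whole of Mtatp8 (chrM:7766-7969) and in the first 60 bases of Mtatp6 (chrM:7927-7986), and the shared base in the junction of Mtatp6 and mt-Co3 (chrM:8592-8622), all 5′ to 3′ on the plus strand from GENCODE M21 transcripts.
Mtatp8: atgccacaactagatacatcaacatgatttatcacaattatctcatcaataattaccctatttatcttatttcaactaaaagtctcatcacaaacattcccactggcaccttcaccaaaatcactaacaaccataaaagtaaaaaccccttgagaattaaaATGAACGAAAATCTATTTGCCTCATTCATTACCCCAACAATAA
Mtatp6 start: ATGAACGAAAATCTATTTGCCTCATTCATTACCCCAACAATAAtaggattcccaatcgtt
Mtatp6 and mt-Co3 junction: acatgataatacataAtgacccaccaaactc

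The shared stretch holds the start codon of Mtatp6 at its first base and the stop codon of Mtatp8 at its end. In the junction, the capital A closes the stop codon of Mtatp6 and opens the start codon of mt-Co3. The ends of mt-Co3 (chrM:9370-9390) and Mt-Cyb (chrM:15268-15288) are shown because these genes encode only the first base of a stop codon, in capitals. In animal mitochondria the poly(A) tail is known to complete such codons.
mt-Co3 end: ccatttattgatgaggatctT
Mt-Cyb end: aaatactaaaattatatccaT

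Total counts ran from 15887011 to 21831860 per library. Ufl1, the targeted gene, stood at 3.08, 3.76 and 4.60 CPM (counts scaled to equal library size by TMM) in Ufl1-KO replicates 1, 2 and 3 and at 22.9, 27.0 and 27.0 CPM in NC replicates 1, 2 and 3. The groups did not overlap, and Ufl1 fell by 2.75 on the log2 scale (SE 0.15, edgeR adjusted p = 1.59e-06). NC replicate 1 differed most from its group: the mean chi-square per gene was 29.2 against NC replicate 2 and 21.8 against NC replicate 3, and 2.50 to 3.92 in the other pairs within a group. Nothing in the labels says that replicates were separate cultures, so p-values rest on a spread between libraries that may be technical. Of 10 fibroblast markers tested, 8 were lower and 1, S100a4, was higher in Ufl1-KO. Among all genes tested 33.1% were called lower and 33% higher, and the other marker counts below can be read against the same shares. Fibroblast markers summed to 13743 to 13832 CPM in Ufl1-KO against 24262 to 28966 CPM in NC. Lum was below the filter on low counts, with no count in any Ufl1-KO library. Summed endothelial markers lay at 5.51 to 6.52 CPM in Ufl1-KO and 4.83 to 7.42 CPM in NC, with Pecam1 lower (log2 fold change -2.81, as for the markers that follow) among 3 tested. Leukocyte markers lay at 17.5 to 23.8 and 34.5 to 38.2 CPM, with all 3 tested lower and Ptprc at 0.195 ± 0.0966 and 0.281 ± 0.356 CPM. In muscle markers the sums were 2.07 to 2.95 and 2.82 to 4.40 CPM, with Actc1 at 0 in all libraries and Myod1 and Myog at 0 in Ufl1-KO, and Des, the one tested, was not called. Epithelial markers summed to 322 to 333 and 306 to 410 CPM, most of it Krt18, with Cdh1 higher (0.70) and Krt14 lower (-1.08) among 4 tested. Neural markers summed to 187 to 199 and 156 to 219 CPM, most of it Nes, with Tubb3 higher (1.74, from 2.96 ± 0.210 to 9.95 ± 0.546 CPM) and Map2 lower (-0.47) among 4 tested. Their part in the results on mitochondrial mRNAs was not tested.

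All 6 mRNAs rose in Ufl1-KO, by 1.49-fold for Mtco2 to 2.61-fold for Mtatp8, which shares its mRNA with Mtatp6 (1.92-fold). By the same edgeR quasi-likelihood test (Benjamini-Hochberg adjusted p under 0.05), 33% of the 12580 genes tested were called higher and 33.1% lower, 66% in all. The median log2 fold change of the 6 mRNAs was 0.91, that of all genes tested 0.01. In each of the 6 the 3 Ufl1-KO libraries lay above the 3 NC libraries, which held for 36% of all genes tested, and for 71.2% in either direction. Permuting the libraries (exact, two-sided, on log2 CPM) gave p = 0.1 for each of the 6, the smallest value that 3 libraries against 3 allow. CPM and FPKM are relative to the other RNA in each library, so no amount per cell can be read from them. Nor can bulk RNA tell a change within cells from a change in the mix of cells. Of the 7 mitochondrially encoded complex I mRNAs, all rose as well, with log2 fold changes of 1.38 to 3.34, so the direction is shared by all 13 mRNAs. These were 2.07 for Mtnd1, 1.72 for Mtnd2, 3.34 for Mtnd3, 1.39 for Mtnd4, 1.38 for Mtnd4l, 1.59 for Mtnd5 and 2.05 for Mtnd6. Tested against a fold change of 1.5 instead of no change, 4 of the 6 were called higher, without Mtco1 and Mtco2, where 9.86% of all genes tested were. The ribosomal RNAs of the mitochondrion had no row under the names searched and are not analysed here.

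The COX mRNAs were the most abundant of the 6 for their length, together with Mtatp6. Mtco1 encodes the subunit that holds the site where oxygen is reduced. Its level was 5963, 6045 and 6160 FPKM (fragments scaled by gene length and library total) in Ufl1-KO replicates 1, 2 and 3, and 3377, 3589 and 3276 FPKM in NC replicates 1, 2 and 3. All Ufl1-KO libraries lay far above NC, and the spread within a group was small, with a coefficient of variation of 1.63% in Ufl1-KO and 4.68% in NC. Mtco1 rose by 0.65 on the log2 scale (SE 0.06, edgeR adjusted p = 1.67e-05), or 1.57-fold, and 16.3% of all genes tested had a larger one. Mtco1 alone took 0.942% ± 0.0154 of all counts on named rows in Ufl1-KO and 0.531% ± 0.0250 in NC (SD, n = 3 each).

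Mtco2, whose product takes up electrons from cytochrome c, had the smallest change of the 6. Its level was 3922, 3789 and 3906 FPKM in Ufl1-KO and 2325, 2435 and 2138 FPKM in NC. The groups were apart, and NC replicate 3 was the lowest library. Mtco2 rose by 0.57 on the log2 scale (SE 0.06, edgeR adjusted p = 4.86e-05), and 19.1% of all genes tested had a larger one. For mt-Co3, which encodes the third core subunit, the level was 1863, 1996 and 1892 FPKM in Ufl1-KO and 857, 1031 and 869 FPKM in NC. NC replicate 2 was above the other NC libraries but well below every Ufl1-KO library. The rise of mt-Co3 was 0.88 on the log2 scale (SE 0.08, edgeR adjusted p = 2.35e-05), or 1.84-fold.

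Mtatp6 encodes the subunit that lets protons pass through the membrane part of ATP synthase. It stood at 2158, 2087 and 2166 FPKM in Ufl1-KO and at 932, 1071 and 944 FPKM in NC. The Ufl1-KO values lay close together, NC replicate 2 was above the other NC libraries, and the groups did not overlap. Mtatp6 rose by 0.94 on the log2 scale (SE 0.07, edgeR adjusted p = 5.86e-06), or 1.92-fold.

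Mtatp8 encodes a small subunit beside it. It was counted lowest of the 6, at 1200, 863 and 1088 counts in Ufl1-KO and 334, 384 and 230 counts in NC. Per length this came to 269, 242 and 256 FPKM in Ufl1-KO and 93.1, 95.2 and 71.0 FPKM in NC. Here NC replicate 3 was low, and the groups were widely apart. Mtatp8 had the largest change of the 6, at 1.39 on the log2 scale (SE 0.11, edgeR adjusted p = 1.11e-05), and 3.19% of all genes tested had a larger one.

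Mt-Cyb, the complex III member, stood at 674, 736 and 704 FPKM in Ufl1-KO and at 286, 324 and 320 FPKM in NC. NC replicate 1 was the lowest library, and no library of either group came near the other group. Mt-Cyb rose by 1.01 on the log2 scale (SE 0.07, edgeR adjusted p = 5.86e-06), or 2.01-fold. The changes of all 6 were scaled by TMM; with library size alone the median of all genes moves from 0.01 to 0.18 on the log2 scale, and the FPKM values, scaled by library total, carry that shift.

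**Figure D1:**
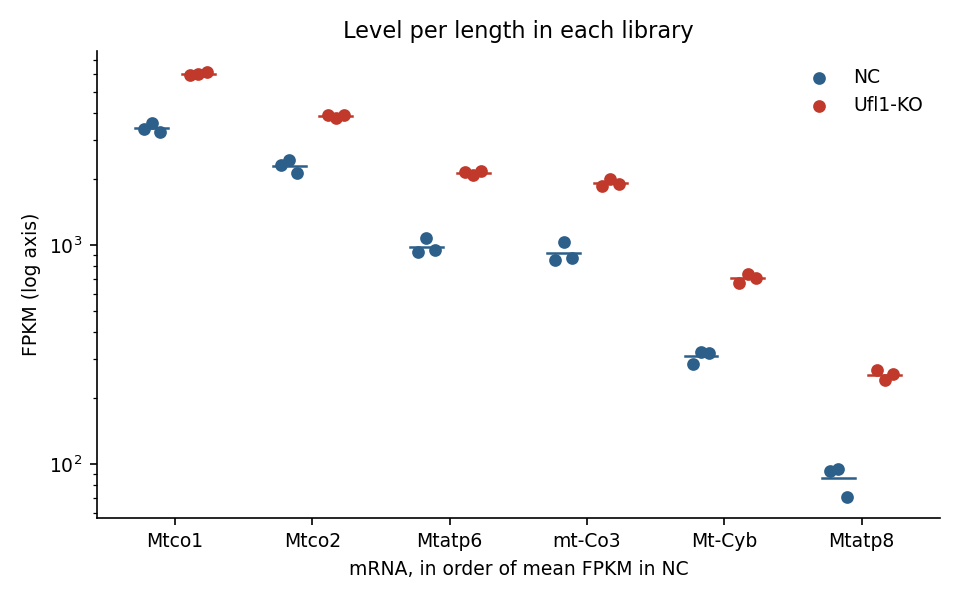
FPKM on a log axis for the 6 mRNAs in each library, with 3 NC (blue) and 3 Ufl1-KO (red) libraries per mRNA as points and the group mean as a bar. In every mRNA the Ufl1-KO libraries lie above the NC libraries, from Mtco1 (3276 to 6160 FPKM) down to Mtatp8 (71.0 to 269 FPKM).

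The order of the levels per length was Mtco1, Mtco2, Mtatp6, mt-Co3, Mt-Cyb and Mtatp8 in all 6 libraries. Mtatp6 and mt-Co3 were neighbours whose NC values overlapped, although Mtatp6 was the higher of the 2 in each library, by 1.07-fold between the NC means and 1.11-fold between the Ufl1-KO means. All other neighbours were apart in both groups. Between the ends of the order, Mtco1 was 40.0 ± 5.35 times as abundant per length as Mtatp8 in NC and 23.7 ± 1.44 times in Ufl1-KO (FPKM ratio within a library, SD, n = 3 each).

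The log2 fold changes of the 6 ran from 0.57 to 1.39. For each of the 15 pairs among them the log2 ratio of counts was taken within each library, which needs no scaling between libraries, and compared between the groups. In 11 pairs the groups did not overlap, where 71.2% of all genes tested had no overlap in their own log2 CPM, and the share among gene pairs at large was not computed. The smallest exact two-sided permutation p was 0.1, the least that 3 against 3 allow, and 0.136 after Benjamini-Hochberg adjustment over the 15 pairs, so no pair could pass 0.05. Mtco1 and Mtco2 kept close to each other, with a difference of 0.07 (log2 ratio of Mtco1 to Mtco2, Ufl1-KO minus NC) and groups that overlapped. Mtatp6 with mt-Co3, Mtatp6 with Mt-Cyb and mt-Co3 with Mt-Cyb also overlapped, with differences of size 0.06 to 0.12. In log2 fold change these 3 lay between Mtco1 and Mtco2 below and Mtatp8 above, an order that was not tested as a grouping. The log2 ratio of Mtco2 to Mtatp6 went from 1.23 ± 0.08 in NC to 0.86 ± 0.01 in Ufl1-KO, and that of Mtco2 to Mtatp8 from 6.49 ± 0.15 to 5.67 ± 0.05 (SD, n = 3 each).

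Mtatp8 and Mtatp6, which share an mRNA, were counted at very different levels per length. The FPKM of Mtatp8 was 9.99%, 8.89% and 7.52% of that of Mtatp6 in NC replicates 1, 2 and 3, and 12.5%, 11.6% and 11.8% in Ufl1-KO replicates 1, 2 and 3. The ratio was thus higher in each Ufl1-KO library than in any NC library. The 43 shared bases are 21.1% of Mtatp8 and 6.31% of Mtatp6, and the FPKM values were computed with the full gene lengths of 204 and 681 bases. Mtnd4l and Mtnd4, the other such pair on this genome, stood at 24.5% ± 3.50 in NC and 24.4% ± 3.14 in Ufl1-KO (SD, n = 3 each), so a short gene ahead of a longer one was counted low there too, without a difference between the groups beyond their spread. With Mtatp8 and Mtatp6 summed as 1 unit, a choice made after seeing the data, the rise was 0.96 on the log2 scale (SE 0.07, edgeR adjusted p = 5.39e-06). The part of shared reads in these ratios was not tested.

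Set against the complex I mRNAs, the 6 lost share while they rose. They made up 91.9% ± 0.857 of the counts of the 13 mitochondrially encoded mRNAs in NC and 84.8% ± 0.482 in Ufl1-KO (SD, n = 3 each). The ratio of their summed counts to those of the 7 complex I mRNAs was 10.2, 12.9 and 11.3 in NC replicates 1, 2 and 3 and 5.68, 5.34 and 5.71 in Ufl1-KO replicates 1, 2 and 3. The groups were far apart in this ratio. The loss lay with Mtco1, from 56.3% ± 0.169 to 50.1% ± 0.429, and Mtco2, from 16.8% ± 0.413 to 14.2% ± 0.381. The other 4 had slightly higher shares in Ufl1-KO by their means, from 7.68% ± 0.492 to 8.05% ± 0.248 for mt-Co3, 7.14% ± 0.287 to 7.80% ± 0.208 for Mtatp6, 3.79% ± 0.288 to 4.32% ± 0.152 for Mt-Cyb and 0.188% ± 0.0229 to 0.280% ± 0.0178 for Mtatp8. For mt-Co3 the groups overlapped, for the other 3 they did not. Of all counts on named rows, the 6 took 0.866% ± 0.0478 in NC and 1.59% ± 0.0179 in Ufl1-KO, and the 95% Wilson interval of a library's share, which covers counting error only, was narrower than this spread between NC libraries (0.847% to 0.855% for NC replicate 1).

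**Figure D2:**
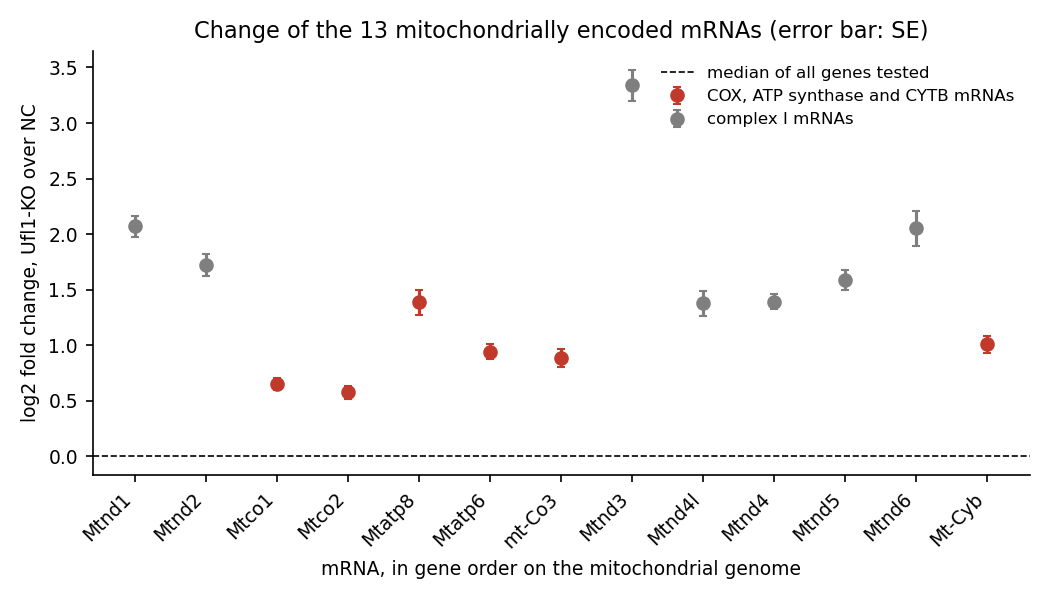
Log2 fold change of Ufl1-KO over NC, with its SE as error bar, for the 13 mitochondrially encoded mRNAs in gene order. Red points are the 6 COX, ATP synthase and CYTB mRNAs, grey points the 7 complex I mRNAs, and the dashed line the median of all genes tested (0.01); Mtco1 (0.65) and Mtco2 (0.57) are the lowest of the 13 and Mtnd3 (3.34) is the highest.

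Gene order and level can be read beside these changes. The 2 smallest changes of all 13 were those of the neighbours Mtco1 and Mtco2. Mtatp8, the next gene in line, lay at 1.39, and at 0.96 when summed with Mtatp6, whose mRNA it shares. Mtatp6 and mt-Co3 followed at 0.94 and 0.88 and Mtnd3, just beyond mt-Co3, at 3.34, so the changes formed no steady course along the genome. The mRNAs that were more abundant per length in NC had the smaller log2 fold changes, with a Pearson correlation of -0.96 (log2 of mean NC FPKM) and a Spearman correlation of -0.89 over the 6 and of -0.83 and -0.78 over the 13. These are descriptions across genes that share libraries and precursor transcripts, and the NC level enters both axes.

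**Figure D3:**
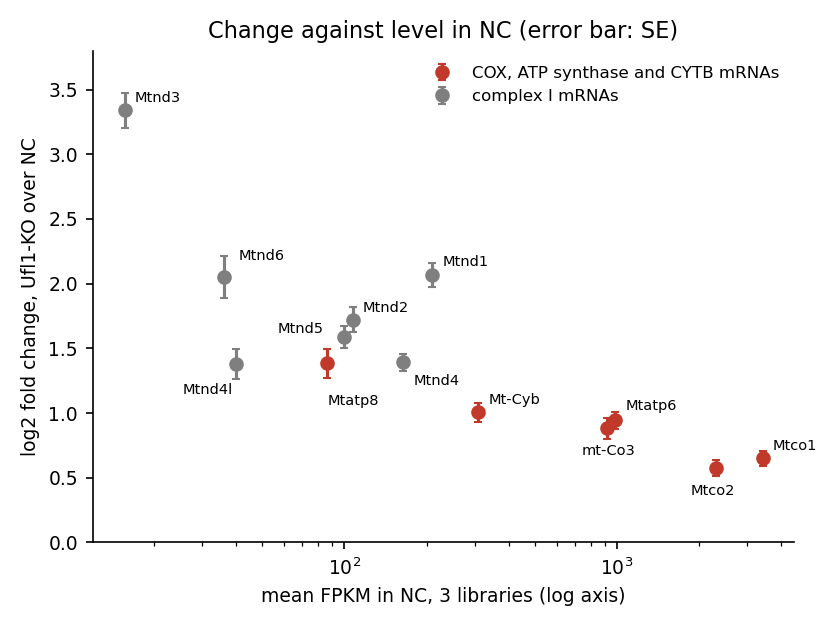
Log2 fold change of Ufl1-KO over NC (SE as error bar) against the mean FPKM in NC on a log axis, for the 6 COX, ATP synthase and CYTB mRNAs (red) and the 7 complex I mRNAs (grey). Points run from Mtnd3 at upper left to Mtco1 (3414 FPKM, 0.65) at lower right.

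Nuclear chromosomes carry pieces of mitochondrial DNA, and reads from a near-identical pair can be shared or dropped in counting. A blastn search of the 6 against all GENCODE M21 transcripts found 13 nuclear pseudogenes, none with a row under its name in the count table. The 1225 rows without a gene name could not be checked for them. Mtco2, Mtatp6 and mt-Co3 each matched a pseudogene on chromosome 1 (Gm28661, Gm10925 and Gm28437) at 100% identity over 99.6%, 99.6% and 99.9% of their length. Mtco1 matched Gm29216, on the same chromosome, at 99.8% identity over 31.3% of its length, and Gm13340, on chromosome 2, at 97.6% over all of it. Mt-Cyb matched Gm11410 at 92.9% identity, and the search reported no annotated pseudogene for Mtatp8. Yet the match of Gm10925 to Mtatp6 starts at its first base, so it includes the 43 bases that Mtatp8 shares with Mtatp6. Gm28661 and Gm10925 lie on the minus strand at chr1:24614885-24615565 and chr1:24613974-24614651, in the same order as Mtco2 and Mtatp6 on chrM. Mtatp8 lies between Mtco2 and Mtatp6, so a copy of its remaining bases would be expected between these pseudogenes. Nuclear DNA outside annotated transcripts was not searched, so such a copy would have been missed. The log2 fold changes were 0.57 to 0.94 in the 4 mRNAs with a reported copy of at least 99% identity. For Mtco1 that copy covers only 31.3% of its length. The log2 fold changes were 1.01 in Mt-Cyb and 1.39 in Mtatp8, whose shared bases have such a copy too. The copy status of Mtatp8 is thus open, and the complex I mRNAs were not searched. These values therefore cannot show whether mRNAs with a copy changed less than those without. The part of such copies in these values was not tested.

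The nuclear partners of the 6 showed no common direction. Of 12 nuclear COX subunit genes tested, 3 rose, 3 fell and 6 missed the threshold, with a median log2 fold change of 0.06. Ndufa4, a subunit once placed in complex I, rose (1.13, SE 0.10), and Cox7a1, the form of subunit 7a best known from heart and skeletal muscle, fell (-1.55, SE 0.28) from a low level of 2.16 ± 0.578 CPM (SD, n = 3). Cox7c fell too (-0.63, SE 0.15). Cox4i2, Cox6a2 and Cox6b2 were below the filter on low counts. Of 24 COX assembly factors tested, 9 rose, 8 fell and 7 missed the threshold, at a median of -0.02. Coa7 (1.38, SE 0.29) rose, and so did Sco1 (1.02, SE 0.16), a copper chaperone for the Mtco2 product, and Cox19 (0.95, SE 0.15).

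Of 18 nuclear ATP synthase genes tested, 6 rose, 4 fell and 8 missed the threshold, at a median of 0.00. Atp5f1b, the catalytic beta subunit, rose from 708 ± 48.8 to 1017 ± 10.5 CPM (0.52, SE 0.06) and Atp5mf rose by 0.55 (SE 0.09), while Atp5mc2, one of several genes for the same subunit c protein, fell (-0.68, SE 0.13). Among 5 assembly factors Atpaf1 rose (1.11, SE 0.10), Atpaf2 fell (-0.47, SE 0.13) and 3 did not pass. Of 9 nuclear complex III subunit genes 2 rose, 3 fell and 4 missed the threshold, at a median of -0.09. Cyc1, which encodes cytochrome c1, rose (0.66, SE 0.07), as did Uqcrc1 (0.44, SE 0.06), and Uqcr10 had the largest fall (-0.35, SE 0.12). Among 6 complex III assembly factors Uqcc1 (0.49, SE 0.09) and Ttc19 (0.48, SE 0.11) rose, Bcs1l (-0.45, SE 0.12) fell and 3 did not pass. The shares called in these lists can be read against 33% higher and 33.1% lower among all genes tested.

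The lists of genes that act on mitochondrial RNA can be read against the same 33% higher and 33.1% lower. Of 9 mitochondrial transcription genes 4 rose, 1 fell and 4 missed the threshold, at a median of 0.23. The elongation factor gene Tefm (0.67, SE 0.18) and Mterf3 (0.62, SE 0.13) rose, and Mterf2 fell (-0.63, SE 0.11). Of 17 genes of mitochondrial RNA processing and stability 6 rose, 6 fell and 5 missed the threshold, at a median of 0.13. Lrpprc, which protects mitochondrial mRNAs from decay, rose from 24.9 ± 5.44 to 61.8 ± 2.78 CPM (1.31, SE 0.14), Rexo2, an RNA exonuclease, rose by 1.04 (SE 0.08), and Hsd17b10, a subunit of the enzyme that trims tRNA ends, fell (-1.18, SE 0.14). Of 14 mitochondrial translation genes 7 rose, 1 fell and 6 missed the threshold, at a median of 0.26. Taco1, a translational activator of Mtco1, rose (0.87, SE 0.22), as did the elongation factor gene Gfm1 (0.83, SE 0.09) and Mtfmt (0.72, SE 0.15), and Oxa1l, which inserts mitochondrial products into the membrane, fell (-0.29, SE 0.11).

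These splits depended on the scaling. With library size alone the counts higher and lower were 6 and 2 for nuclear COX subunits, 11 and 5 for COX assembly, 8 and 2 for ATP synthase, 2 and 0 for its assembly, 3 and 0 for complex III, 3 and 0 for its assembly, 5 and 1 for transcription, 10 and 6 for RNA processing and 8 and 0 for translation, and the medians of COX assembly, ATP synthase assembly and complex III turned positive (0.16, 0.08 and 0.09). Without NC replicate 1 the genes called lower numbered 5 for nuclear COX subunits, 7 for ATP synthase, 5 for complex III and 3 for translation, and those called higher in RNA processing numbered 9. Without any other single library, NC or Ufl1-KO, the lower counts were 2 for nuclear COX subunits and 2 for ATP synthase. For complex III the lower count was 3 without NC replicate 3 and 1 without NC replicate 2 or any Ufl1-KO library. For translation it was 1 without Ufl1-KO replicate 2 and 0 without the others. The fall of Atpaf2 was the only one among ATP synthase assembly factors and was lost without Ufl1-KO replicate 2, and 6 COX assembly genes were called higher without Ufl1-KO replicate 1.

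**Figure D4:**
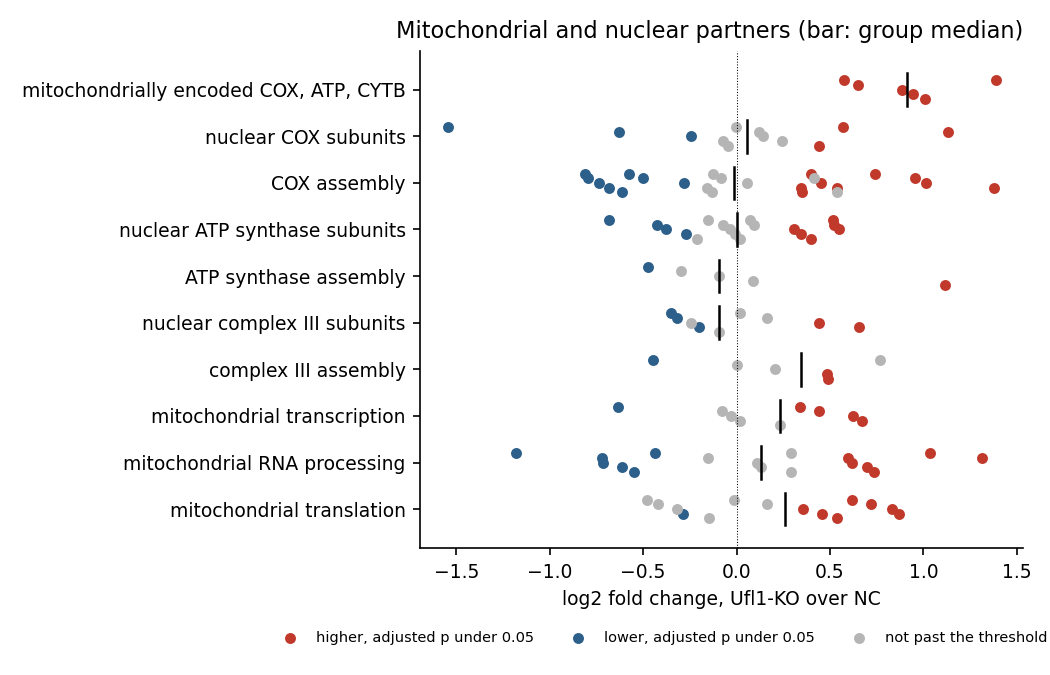
Log2 fold change of Ufl1-KO over NC for the 6 mitochondrially encoded mRNAs and for nuclear genes in 9 lists, 1 point per gene, red where called higher, blue where called lower and grey where not past the threshold, with a bar at the median of each group. The 6 lie between 0.57 and 1.39, with a median of 0.91, while the nuclear subunit lists have medians of -0.09 to 0.06.

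Outside the mitochondrial genome, the genes most like the 6 were ranked over the 6 libraries by the root mean square distance between a gene's centred log2 CPM and the mean centred profile of the 6, among 7877 genes with a mean log2 CPM of at least 4. The nearest were Brd9 (distance 0.04), Trim30a (0.05), a name that stands on 6 rows, and Rbl1 (0.05), with log2 fold changes of 0.85, 0.89 and 0.85. Of the 6 themselves, Mtatp6 was nearest to their mean (0.03, rank 1 of 7877) and Mtatp8 farthest (0.26, rank 1469). Mt-Cyb, Mtco1 and Mtco2 stood at ranks 64, 227 and 498, so many other genes lay nearer to the mean than some of the 6.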

How the data were processed

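Total RNA of 6 MEF libraries was sequenced. Per the submitters' processing notes, fastp 0.20.1, STAR 2.7.7a and featureCounts 2.0.0 were used, with builds mm10, hg38 and GRCh38 listed without roles. The sources used here do not give the strand setting or the handling of shared reads. Estimated counts were deposited by the authors without normalisation. All values of the 6 mRNAs were whole (tolerance 0.001), while 7.29% to 8.09% of all rows held a fractional value in a library. The deposited FPKM values equal counts divided by library total and full gene length, which gave back the GENCODE M21 length of each of the 6 mRNAs. The table has 22274 rows, from which 1225 without a gene name were dropped (0.594% to 0.661% of counts).

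Counts were rounded, filtered with filterByExpr, scaled by TMM and compared between genotypes, with no other term, by the quasi-likelihood test of edgeR 4.0.16 under R 4.3.3, adjusted over all 12580 rows tested at 0.05. SEs come from the fold change and F statistic. Log2 CPM used a prior count of 2. DESeq2 1.42.0 and limma 3.58.1 served as alternatives. Copies were searched with blastn 2.17.0. Where a listed gene stood on several rows, it entered only if exactly 1 of them averaged 10 counts or more. Members and lists were chosen with earlier results of these data known. Named were, per list, up to 3 called genes with the largest absolute log2 fold change, plus genes called against the majority of a list where these were 3 or fewer. The rule also named the 6 mRNAs, the 7 complex I mRNAs, Ufl1 and the 3 nearest profiles; genes below the filter and marker genes were named outside it.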

Additional observations from a re-analysis of the deposited data

How the results depend on the processing

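The 6 mRNAs were higher in Ufl1-KO under all 19 alternatives fitted, and all 6 were called in 17 of them. With 1.5-fold as the null, 4 were called (9.86% of all genes tested were called higher), with adjusted p of 0.166 for Mtco1 and 0.733 for Mtco2. With limma on log2(FPKM + 1) and no filter 5 were called (adjusted p = 0.111 for Mtco1). Leaving out each library in turn, all 6 stayed called, where 3545 to 4787 of all genes were called higher, of 12660 to 12765 tested. The log2 fold changes were then 0.63 to 0.68 for Mtco1, 0.53 to 0.61 for Mtco2 and 0.82 to 0.97 for mt-Co3. They were 0.90 to 1.01 for Mtatp6, 1.27 to 1.46 for Mtatp8 and 0.94 to 1.04 for Mt-Cyb. Pairs of mRNAs without overlap numbered 11 to 14. Removing a library cannot make separated groups overlap, so this count could not fall below 11. Of all genes, 4146 were called higher and 4163 lower, against 5471 and 3191 with library size alone, and 5292 and 3050 with log2(FPKM + 1) or 5285 and 3061 with log2(FPKM + 0.1). Without a filter on FPKM, 2623 were lower and 4705 higher. Against a fold change of 1.5, 2844 were called, 1240 higher and 1604 lower. Over the 9 nuclear lists 39 genes rose and 28 fell. The lower count was 16 with library size alone and with either pseudocount on FPKM, and 9 without a filter on FPKM, while against a fold change of 1.5 the counts were 8 and 2. The cause of these shifts was not tested, apart from the median of all genes, which stood at 0.18 with library size alone and 0.13 and 0.17 in the filtered FPKM fits.

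Shares of the 13 mRNAs taken on FPKM in place of counts differ by construction, since length is divided out. In Ufl1-KO they were 34.4% for Mtco1, 21.97% for Mtco2, 10.9% for mt-Co3, 12.1% for Mtatp6, 1.45% for Mtatp8 and 3.995% for Mt-Cyb. In NC they were 39.3%, 26.5%, 10.6%, 11.3% and 0.992% for the first 5 of these.

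The labels do not say whether replicate numbers pair the libraries. Same-numbered libraries deviated from their group means with correlations of 0.02, -0.13 and 0.04, and not every library correlated best with its own number. So few libraries cannot settle whether they were paired. With the replicate number as a block, 7945 genes were called and all 6 mRNAs stayed called. Mtatp8 had the lowest counts of the 6 in NC (230 to 384) and a coefficient of variation of 15.5% there.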

Other observations

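The spread of the 6 mRNAs between libraries differed between the groups. The coefficient of variation of FPKM was smaller in Ufl1-KO than in NC for each of the 6, at 1.63% against 4.68% for Mtco1, 1.87% against 6.53% for Mtco2, 2.04% against 7.81% for Mtatp6, 3.65% against 10.6% for mt-Co3, 4.39% against 6.80% for Mt-Cyb and 5.34% against 15.5% for Mtatp8. This difference in spread was not tested, and the share of all genes that show it was not computed. Across all genes tested, pairs with NC replicate 1 differed most (mean chi-square per gene of 29.2 and 21.8). Among the complex I mRNAs the coefficient was larger in Ufl1-KO for Mtnd4 (6.61% against 1.88%) and Mtnd6 (20.5% against 16.2%) and smaller for the others. NC replicate 1 lay below the mean of the other NC libraries in mt-Co3 (-0.17 in log2 CPM), Mtatp6 (-0.14) and Mt-Cyb (-0.20) and above it in Mtatp8 (0.15), while in Mtco1 (-0.05) and Mtco2 (-0.00) it lay close to them.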
